A study of Mus musculus with 16 samples.

Results

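The NF-κB gene set described here comprises 10 mouse genes, named by symbol and not by their response. They are the 5 genes of the NF-κB subunits (Rela, Relb, Rel, Nfkb1 and Nfkb2) and 5 genes of inhibitors of the IκB family (Nfkbia, Nfkbib, Nfkbie, Nfkbiz and Bcl3). All 10 were found once among the 55487 genes of the count table, and all 10 passed the filter on low counts that kept 12372 genes.

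NF-κB is a family of dimeric transcription factors that drives inflammatory genes in macrophages. Rela, Relb and Rel encode subunits with a transactivation domain, while Nfkb1 and Nfkb2 encode the precursors p105 and p100, which are processed to the DNA-binding subunits p50 and p52. The classical inhibitors IκBα, IκBβ and IκBε, encoded by Nfkbia, Nfkbib and Nfkbie, hold dimers in the cytoplasm until the IκB kinases (IKK) mark them for degradation. The atypical members IκBζ (Nfkbiz) and Bcl-3 (Bcl3) bind NF-κB in the nucleus and can raise or lower transcription. Several of these genes are themselves known NF-κB targets, with Nfkbia the textbook feedback inhibitor.

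RNA was measured in 16 samples of bone marrow-derived macrophages (BMDMs), macrophages grown in culture from the marrow of WT Balb/c mice of 8 weeks. The cells received DMEM, the medium without tumor factors (2 samples, titled as having no CM), DMEM with ruxolitinib (Rux, 3 samples), conditioned media (CM) of 4T1 mouse mammary tumor cells (3), CM + Rux (3, titled 4 h), CM + Rux titled 2 h (2), or CM + Rux + IKK-16 (3). Ruxolitinib inhibits the kinases JAK1 and JAK2 and was used at 0.5 μM in CM, and IKK-16 inhibits IKK and was used at 0.8 μM. The dose of ruxolitinib in DMEM is not given in the sources used here, nor is what the 2 h of the titles refers to. Titles of DMEM, DMEM + Rux, CM and CM + Rux + IKK-16 samples give no time. The paper's methods name 4 h of treatment for RNA, with ruxolitinib for CM-treated cells already added during pre-treatment.

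No group received IKK-16 without ruxolitinib, so its effect was measured only on top of JAK inhibition. The sources used here do not say which samples came from separate mice, and p-values measure only the spread between these samples, which may be technical. Gene counts summed to 18449388 to 46215853 fragments per sample, and the lowest count of any of the 10 genes in any sample was 489, for Bcl3 in DMEM + Rux replicate 1. All 10 macrophage markers examined were detected in every group, and their summed level was 40545 to 57894 CPM (counts scaled to a common library size) per sample. The summed level of 8 epithelial markers, which tumor cells would carry, was at most 1.445 CPM in any sample. In bulk RNA, fewer cells with a transcript and less transcript per cell cannot be told apart.

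The promoters of the genes were examined first, because they show which members carry a motif of the factor that they encode or inhibit. RefSeq windows of 250 bases before to 50 bases after an annotated start (GRCm38.p6) were at hand for 7 of the 10 genes, in 9 windows. The κB consensus, searched on both strands, was found for 5 of these 7 genes, Rel, Nfkb2, Nfkbia, Nfkbie and Bcl3. It was found in 4.51% of 32851 windows of the same length and for 5.14% of 27025 genes. The windows of Rela (chr19:5637291-5637590) and Nfkbib (chr7:28766595-28766894) held no match. The stretches with a match are printed on the strand of the gene, with the bases of the match in capitals. Where 2 matches overlapped by all but 1 base, the capitals run over both.
Rel, chr11:23771043-23771071, minus strand: cgtaagcagcGGGAAATCCCCccccctcc
Nfkb2 first start, chr19:46304688-46304716, plus strand: ggatcgtcacGGGAATTCCCCccctcggg
Nfkb2 first start, chr19:46304716-46304745, plus strand: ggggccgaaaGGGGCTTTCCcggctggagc
Nfkb2 second start, chr19:46305449-46305478, plus strand: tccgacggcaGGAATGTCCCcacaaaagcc
Nfkb2 second and last starts, chr19:46305695-46305724, plus strand: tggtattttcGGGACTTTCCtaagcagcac
Nfkbia, chr12:55492657-55492686, minus strand: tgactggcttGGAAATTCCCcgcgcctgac
Nfkbie, chr17:45555584-45555613, plus strand: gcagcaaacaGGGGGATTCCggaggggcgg
Bcl3, chr7:19822734-19822763, minus strand: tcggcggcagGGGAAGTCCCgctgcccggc

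Nfkb2 was the gene with matches in all 3 of its windows, and 4 separate stretches of it are shown. The match in Nfkbia began 29 bases before the annotated start, that in Rel 92 bases before and that in Nfkbie 106 bases before, while that in Bcl3 began 2 bases after it. The motif of STAT factors, the transcription factors downstream of JAK kinases, was searched as TTCNNNGAA on both strands. It was found for 1 of the 7 genes, in the window of the first start of Nfkb2, where it overlapped no κB match. Over the whole set it was found for 9.55% of 27025 genes and in 8.30% of all windows. A match is a string of letters and was not tested for binding.

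The 6 groups fell in nearly the same order for every member. Mean CPM was lowest in DMEM + Rux for all 10 genes, second lowest in DMEM for all 10, next in CM + Rux + IKK-16 for all 10 and highest in CM + Rux 2 h for all 10. Between these, CM lay below CM + Rux for 8 genes, and above it for Nfkbie and Bcl3. With scaling by total counts this order turned for Rela (CM and CM + Rux + IKK-16 against DMEM, and CM + Rux + IKK-16 against CM), for Rel (CM + Rux + IKK-16 against CM) and for Nfkb1 and Nfkb2 (CM + Rux 2 h against CM + Rux). Not all neighbours in the order were apart in their samples. All samples of DMEM + Rux lay below those of DMEM for 4 genes, against 8.83% of all genes, and all samples of CM + Rux + IKK-16 lay above those of DMEM for 9 genes, all but Rela, against 35.1%. All samples of CM + Rux + IKK-16 lay below those of CM for 5 genes, against 19.7%. All samples of CM + Rux lay above those of CM for 5 genes, against 9.66%, and below them for 1, Bcl3, against 9.57%. All samples of CM + Rux 2 h lay above those of CM + Rux for 7 genes, against 28.5%.

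**Figure D1:**
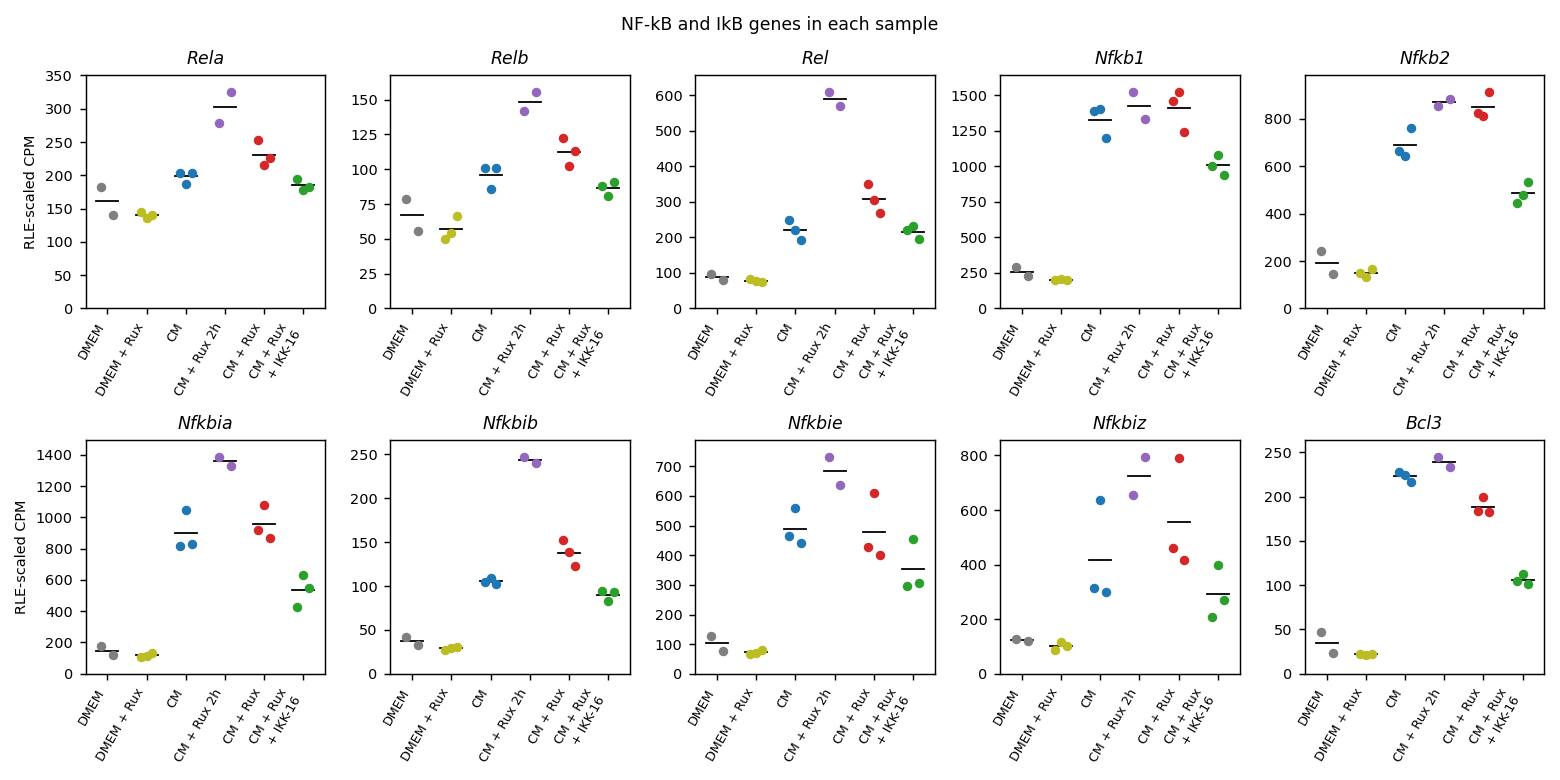
RLE-scaled CPM (vertical axis, from 0) of the 10 genes in each of the 16 samples, with a panel per gene, a point per sample and a line at the group mean. In all 10 panels the DMEM + Rux mean is the lowest and the CM + Rux 2 h mean the highest, and the CM + Rux + IKK-16 mean lies between DMEM and CM, an order that turns in part with scaling by total counts for Rela, Rel, Nfkb1 and Nfkb2.

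Compared per length, as CPM per kilobase of merged exons, the genes differed in level and changed rank with CM. In DMEM, Nfkbia was the highest at 91.1 ± 25.7 CPM per kb (SD, n = 2), followed by Rela at 52.5 ± 9.87. Rel was the lowest in DMEM at 11.9 ± 1.73 CPM per kb. In CM, Nfkbia stood at 558 ± 80.7 CPM per kb (SD, n = 3), and Rela, now seventh of the 10 genes, at 64.6 ± 3.12. The exon length used is that of all annotated isoforms together, so a gene with long unused exons reads too low on this scale. Nfkb1, with 12061 bases, is the longest of the set and Nfkbia, with 1610 bases, the shortest.

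The make-up of the subunit transcripts differed between media. The summed level of the 5 subunit genes was 120.4 and 170 CPM per kb in the DMEM samples and 370 to 386 in the CM samples. Rela made up 35.0% and 37.8% of this sum in DMEM and 16.5% to 17.3% in CM. Nfkb1 made up 14.3% and 15.6% in DMEM and 25.9% to 31.5% in CM, and Nfkb2 26.0% and 31.0% in DMEM and 37.6% to 43.3% in CM. Thus the 2 precursor genes held the larger share in CM, and the samples of the 2 media did not overlap for any of these 3 genes. The share of Rel was 6.68% to 8.66% in CM, 8.20% to 10.2% in CM + Rux and 14.5% and 15.6% in CM + Rux 2 h.

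The classical inhibitor genes were also set against the subunit genes. The ratio of the summed CPM per kb of Nfkbia, Nfkbib and Nfkbie to that of the subunits was 1.01 and 0.940 in DMEM and 0.860 to 0.974 in DMEM + Rux. In CM it was 1.84 to 2.40, in CM + Rux 1.65 to 2.12, and in CM + Rux + IKK-16 1.36 to 1.90. The samples with CM all lay above those without it, while the 3 groups last named overlapped. Within each replicate number the ratio was lower in CM + Rux than in CM and lower again in CM + Rux + IKK-16, with 1.84, 1.70 and 1.36 for replicate 1, 2.40, 2.12 and 1.90 for replicate 2 and 1.84, 1.65 and 1.59 for replicate 3. Nfkbia held 63.9% to 74.1% of the classical inhibitor sum in every sample of the study.

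**Figure D2:**
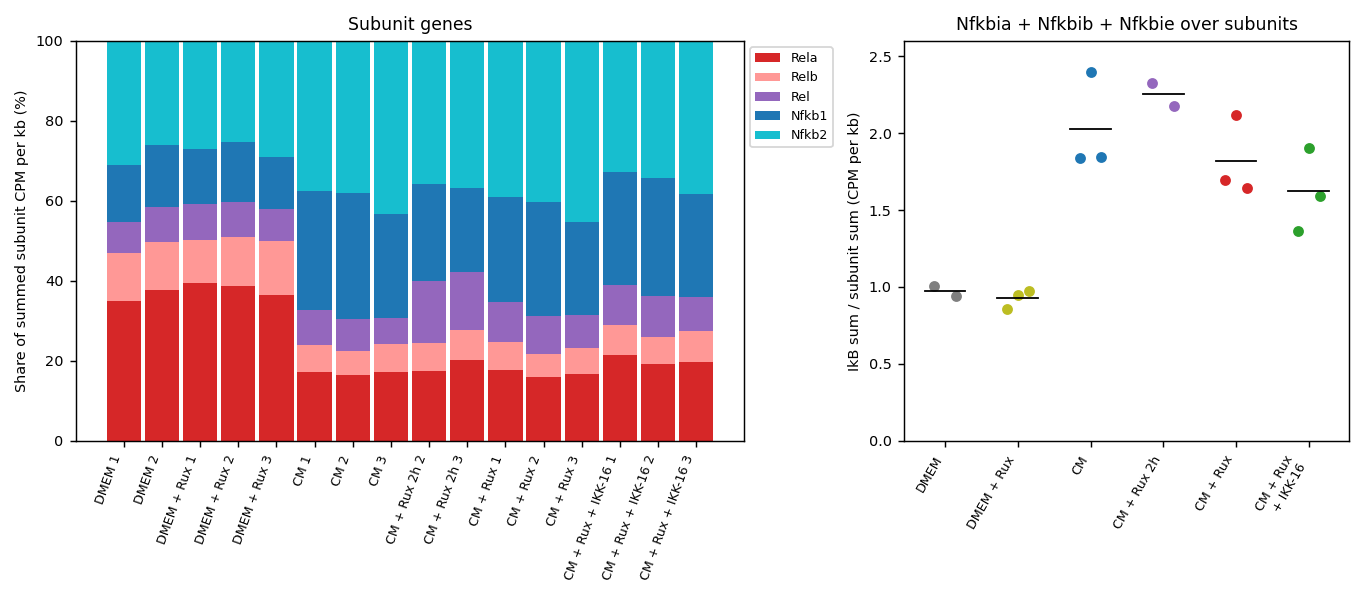
Left, share of each subunit gene in the summed subunit CPM per kb (percent, stacked bars, a bar per sample); right, ratio of the summed CPM per kb of the 3 classical IκB genes to that of the subunits, with a point per sample and a line at the group mean. Rela falls from 35.0% and 37.8% in DMEM to 16.5% to 17.3% in CM, and the ratio is 0.860 to 1.01 without CM and 1.36 to 2.40 with it.

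The first comparison asked how tumor factors change these genes, by setting CM against DMEM. Of the 10 genes, 9 were called higher in CM and none lower, a call being a log2 fold change larger than 0.5 in size with an adjusted p below 0.05. Among all genes tested, 20.9% were called higher and 45.0% in either direction (2584 higher and 2980 lower, or 1536 and 4605 with scaling by total counts). The median log2 fold change of the 10 genes was 1.80, and that of all genes tested -0.0050. In all 10 genes every CM sample lay above every DMEM sample, which held for 37.8% of all genes.

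Among the subunits, Nfkb1 rose the most. It stood at 293 and 226 CPM in DMEM and at 1387, 1403 and 1199 in CM. The log2 fold change was 2.36 ± 0.14 (SE; adjusted p = 1.18e-08), a 5.12-fold difference. Nfkb2, at 241 and 144 CPM in DMEM, reached 667, 645 and 759.7 in CM (1.84 ± 0.18, adjusted p = 1.18e-06). Rel, the c-Rel subunit gene, stood at 97.9 and 79.6 CPM in DMEM and at 249.7, 220.5 and 191 in CM, a log2 fold change of 1.31 ± 0.14 (adjusted p = 2.13e-06). The precursor genes and Rel thus more than doubled, with a wide gap between the groups.

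The genes of the other transactivating subunits changed little. Rela, which encodes p65, stood at 183 and 139.7 CPM in DMEM and at 204, 187 and 204 in CM. Its log2 fold change of 0.30 ± 0.11 had an adjusted p of 0.0273 and was below the fold threshold. Relb, whose product pairs mainly with p52, stood at 79.0 and 55.3 CPM in DMEM and at 101, 86.0 and 101 in CM, with a log2 fold change of 0.51 ± 0.15 (adjusted p = 0.00828). Both values depended on scaling. RLE shifted the median over genes by 0.31 here, and with scaling by total counts Relb was at 0.21 (adjusted p = 0.284) and Rela at -0.0098. The call of Relb was also lost without CM replicate 1 (0.476), CM replicate 3 (0.478) or DMEM replicate 2 (0.28) and with the replicate block (0.48), and Rela was called without DMEM replicate 1 (0.50).

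All 5 inhibitor genes rose in CM. Nfkbia stood at 176 and 117 CPM in DMEM and at 819, 1049 and 829 in CM, a log2 fold change of 2.61 ± 0.21 (adjusted p = 1.64e-07). Bcl3 rose from 47.0 and 23.0 CPM to 228, 224 and 216, a log2 fold change of 2.66 ± 0.21 (adjusted p = 1.48e-07). The 2 DMEM samples of Bcl3 lay far apart, and the value was 2.25 without DMEM replicate 2 and 3.28 without DMEM replicate 1. Bcl3 had the largest change of the 10 genes with all samples, but without DMEM replicate 2 that of Nfkbia was larger, at 2.35. Nfkbie rose from 129 and 77.4 CPM to 466, 558 and 439.8 (2.24 ± 0.25, adjusted p = 4.64e-06). Nfkbib rose from 42.0 and 32.3 CPM to 105, 109 and 102 (1.5 ± 0.12, adjusted p = 1.36e-07).

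Nfkbiz was the most uneven member within the CM groups. It stood at 127 and 121 CPM in DMEM and at 316, 638 and 301 in CM, a log2 fold change of 1.76 ± 0.36 (adjusted p = 0.000836). Replicate 2 was also the highest sample in CM + Rux and in CM + Rux + IKK-16, with 790.1 and 400 CPM. Within CM, replicate 2 was the highest sample for 5 of the 10 genes, against 4 for replicate 1 and 1 for replicate 3. Some markers of other cells moved with this comparison. The 8 epithelial markers summed to 0.814 to 1.445 CPM in CM and at most 0.118 in DMEM, with Krt14 and Krt5 at 0 in both groups, and 8 neutrophil markers to 1.72 to 3.32 against at most 0.295 CPM, with Ly6g and Elane at 0 in both. Their part in the result was not tested.

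Ruxolitinib was then compared with CM alone, to see whether JAK inhibition changes these genes in tumor medium. None of the 10 genes was called, against 1.20% of all genes called higher and 2.13% lower, and DESeq2 also called none. At an unadjusted p under 0.05 there were 3 of the 10, Rel, Nfkbib and Rela, against 15.3% of all genes. Rel stood at 351, 305 and 269.7 CPM in CM + Rux, which is 0.49 ± 0.12 higher on the log2 scale (adjusted p = 0.0289) and just short of the fold threshold. Nfkbib reached 152, 138.5 and 123 CPM (0.39 ± 0.10, adjusted p = 0.0344), also below it. By adjusted p alone these 2 passed, against 4.56% of all genes. With the replicate block adjusted p was 0.00029 for Rel and 0.0102 for Nfkbib. Their log2 fold changes stayed below the threshold, at 0.49 and 0.39. Samples with the same replicate number gave log2 ratios of 0.47 to 0.50 for Rel and 0.28 to 0.54 for Nfkbib. In these 2 genes and in Rela, Relb and Nfkb2, every CM + Rux sample lay above every CM sample, 5 of the 10 against 9.66% of all genes. The call of Rel turned on the setting: it was called without CM replicate 1 (0.58), without CM + Rux replicate 3 (0.57) and with scaling by total counts (0.51).

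In the model without pairing, none of the remaining members passed the test with ruxolitinib in CM. Nfkb1 stood at 1461, 1525 and 1239 CPM, a log2 fold change of 0.08 with a 95% interval of -0.15 to 0.32. Nfkbia stood at 922, 1078 and 865 CPM (0.09, interval -0.27 to 0.44), and Nfkbie at 428.5, 609.7 and 400.0 CPM (-0.03, interval -0.47 to 0.42). These intervals come from the model without pairing and are wide, so it cannot tell smaller changes of either sign from none. Samples with the same replicate number gave log2 ratios of 0.05 to 0.12 for Nfkb1 and 0.04 to 0.17 for Nfkbia. For Nfkbie they gave -0.14 to 0.13, below 0 in 2 of 3 pairs. With the replicate block none of these genes passed (adjusted p = 0.647 for Nfkb1, 0.816 for Nfkbia and 0.951 for Nfkbie). Bcl3 stood apart, with 183, 199.7 and 182 CPM, each below every CM sample, and a log2 fold change of -0.24 that did not pass the test (adjusted p = 0.58). The log2 fold changes of Rela (0.22), Relb (0.23), Nfkb2 (0.30) and Nfkbiz (0.41) did not pass either without pairing. Same-numbered samples gave 0.14 to 0.31 for Rela, 0.17 to 0.27 for Relb, 0.27 to 0.33 for Nfkb2 and 0.31 to 0.54 for Nfkbiz. For Bcl3 they gave -0.31 to -0.17. With the replicate block Rela had an adjusted p of 0.0317, but its change of 0.22 was below the fold threshold. Relb (0.157), Nfkb2 (0.132), Nfkbiz (0.265) and Bcl3 (0.394) did not pass by adjusted p with the block.

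In DMEM, ruxolitinib went with lower values of all 10 members, against 46.6% of all genes, but no member passed the test. The log2 fold changes ran from -0.19 for Rel to -0.67 ± 0.19 for Bcl3, whose adjusted p was 0.216, and 4 of the 10 genes had an unadjusted p under 0.05, against 5.20% of all genes. Among all genes 0.970% were called lower and none higher. Bcl3 stood at 22.6, 20.9 and 22.7 CPM in DMEM + Rux. This comparison rests on 2 DMEM samples, and replicate 1 exceeded replicate 2 in all 10 genes. Without DMEM replicate 2, the values of Bcl3 and Nfkb2 were -1.09 and -0.69. Without DMEM replicate 1, the direction turned for Rela (0.0089), Relb (0.036), Nfkb2 (0.061) and Nfkbia (0.017).

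The effects of ruxolitinib in the 2 media were compared by an interaction term. It was positive for all 10 genes, from 0.39 for Nfkbia to 0.73 ± 0.15 for Nfkbib, with a median of 0.47 against -0.0021 over all genes. A positive term means a higher value of the ruxolitinib effect in CM than in DMEM. None of the 10 was called, against 0.412% of all genes, although Nfkbib was at the threshold (adjusted p = 0.0502). At an unadjusted p under 0.05 there were 6 of the 10, against 9.08% of all genes, and DESeq2 called 2, Nfkbib (0.73, adjusted p = 0.0013) and Rel (0.68, adjusted p = 0.021), against 1.92% of all genes. With replicate number added as a block, Rel (0.60, adjusted p = 0.00532), Nfkbib (0.70, adjusted p = 0.011) and Nfkb2 (0.71, adjusted p = 0.0428) were called, against 3.59% of all genes. The term shares the DMEM samples of the preceding comparison. Without DMEM replicate 2 it was 0.85 for Bcl3, 0.99 for Nfkb2 and 0.90 for Nfkbib, and without DMEM replicate 1 that of Bcl3 was -0.18.

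**Figure D3:**
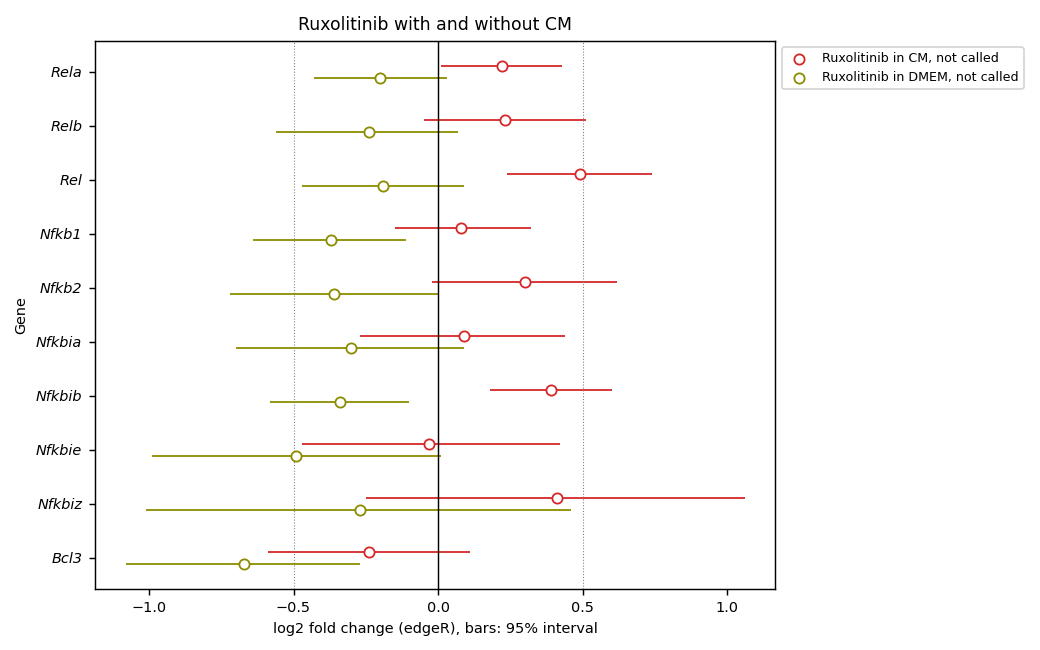
Log2 fold change with its 95% interval (horizontal axis) of the 10 genes with ruxolitinib in CM and in DMEM, open points marking values that were not called and dotted lines the threshold of 0.5. All 10 values in DMEM are below 0, from -0.19 to -0.67, and 8 of the 10 in CM are above 0.

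Adding IKK-16 to CM + Rux lowered a part of the set. Of the 10 genes, 5 were called lower, namely Nfkbia, Bcl3, Nfkb2, Nfkbib and Rel, and none higher, whereas 3.66% of all genes were called lower. With scaling by total counts the first 4 were still called, and the split over all genes moved from 504 higher and 453 lower to 727 and 350. All 10 log2 fold changes were negative, against 50.3% of all genes, with a median of -0.57 against -0.0019 over all genes. Without the fold threshold 7 of the 10 passed, against 14.4% of all genes in either direction. In 9 of the 10 genes every sample with IKK-16 lay below every sample of CM + Rux, which held for 17.1% of all genes, and Nfkbie was the exception. For Nfkbie, samples with the same replicate number gave a negative log2 ratio in all 3 pairs. For the other 9 genes the separation already fixes that sign.

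Of the subunits, the gene of p100, Nfkb2, fell the most with IKK-16. Its 3 samples of CM + Rux had 825, 812.5 and 914 CPM and those with IKK-16 446, 477 and 533. The log2 fold change was -0.81 ± 0.15 (adjusted p = 0.0035), a 1.75-fold lower level. Rel fell from 351, 305 and 269.7 CPM to 221, 231 and 194, a log2 fold change of -0.52 ± 0.12 (adjusted p = 0.00912). The groups did not overlap for either gene, but Rel lay close to the fold threshold. It was not called with scaling by total counts (-0.44), without CM + Rux replicate 1 (-0.42) or without CM + Rux + IKK-16 replicate 3 (-0.45).

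The other subunits were not called, and all fell short of the fold threshold. Nfkb1 stood at 1004, 1081 and 941 CPM with IKK-16, all below the 1239 to 1525 CPM of CM + Rux, with a log2 fold change of -0.48 ± 0.11 (adjusted p = 0.0103). Without CM + Rux replicate 3 (-0.57) or CM + Rux + IKK-16 replicate 2 (-0.53) it was called. Rela stood at 253, 215 and 225 CPM in CM + Rux and at 194, 178 and 183 with IKK-16 (-0.32 ± 0.10, adjusted p = 0.0394). Relb stood at 122, 102 and 113 CPM and at 87.8, 81.1 and 90.5 (-0.38 ± 0.13, adjusted p = 0.0692). With the replicate block adjusted p was 0.00104 for Nfkb1, 0.00178 for Rela and 0.00954 for Relb. Their log2 fold changes stayed at -0.48, -0.32 and -0.38. The separation of the samples was thus complete for all 5 subunit genes while the changes of Rela, Relb and Nfkb1 stayed below 0.5.

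Among the classical inhibitors, Nfkbia was the most changed. It stood at 922, 1078 and 865 CPM in CM + Rux and at 424, 628 and 546 with IKK-16, a log2 fold change of -0.84 ± 0.17 (adjusted p = 0.00465). Nfkbib fell from 152, 138.5 and 123 CPM to 94.3, 82.6 and 92.9 (-0.62 ± 0.10, adjusted p = 0.00112), the lowest adjusted p of the set. Nfkbie stood at 428.5, 609.7 and 400.0 CPM and at 295, 455 and 307 with IKK-16. Its groups overlapped, since replicate 2 was high in both, and its log2 fold change of -0.45 ± 0.21 did not pass (adjusted p = 0.175).

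Both atypical members had large values. Bcl3 fell from 183, 199.7 and 182 CPM to 104, 112 and 101, a log2 fold change of -0.83 ± 0.17 (adjusted p = 0.00486). The spread within each of these groups was small against the gap between them. Nfkbiz had the largest value of the set, from 459, 790.1 and 417 CPM to 208, 400 and 272, a log2 fold change of -0.92 ± 0.31, but with its spread it did not pass (adjusted p = 0.0606). With replicate number as a block, Nfkbiz was called (-0.92, adjusted p = 0.0070), and then 6 of the 10 genes were called lower, against 5.04% of all genes. It was also called without CM + Rux replicate 3 (-1.09) and without CM + Rux + IKK-16 replicate 2 (-1.21).

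**Figure D4:**
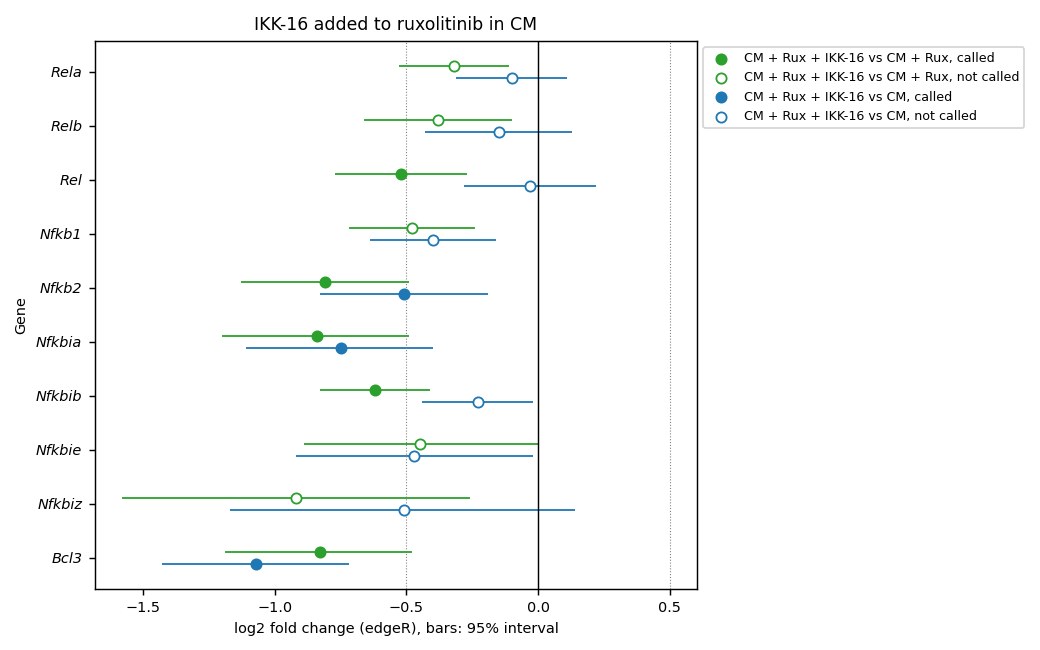
Log2 fold change with its 95% interval (horizontal axis) of the 10 genes for CM + Rux + IKK-16 against CM + Rux and against CM, filled points marking called genes and dotted lines the threshold of 0.5. All values lie below 0 (Rel and Rela against CM above it with scaling by total counts), with 5 genes called against CM + Rux and 3 against CM, and the value of Rel against CM is near 0 at -0.03.

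The level reached with IKK-16 was set against CM without inhibitors, a comparison that shares the samples with IKK-16. Of the 10 genes 3 were called lower, Bcl3, Nfkbia and Nfkb2, against 6.13% of all genes (817 higher and 758 lower, or 1255 and 587 with scaling by total counts), and in 5 of the 10 every sample lay below every CM sample, against 19.7%. Bcl3 was at a log2 fold change of -1.07 ± 0.17 (adjusted p = 0.00047), from 216 to 228 CPM in CM to 101 to 112 with both inhibitors. Nfkbia was at -0.75 ± 0.17 (adjusted p = 0.00525) and Nfkb2 at -0.51 ± 0.15 (adjusted p = 0.026). The call of Nfkb2 was lost in 6 of 15 alternatives, among them scaling by total counts (-0.40) and leaving out CM replicate 3 (-0.44), CM + Rux + IKK-16 replicate 1 (-0.45) or CM + Rux + IKK-16 replicate 2 (-0.497). Rel (-0.03, interval -0.28 to 0.22) and Rela (-0.10, interval -0.31 to 0.11) did not differ detectably from CM. The shift by RLE was -0.11 here, and with scaling by total counts Rel was at 0.072 and Rela at 0.0068.

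Against DMEM, the cells given CM and both inhibitors still held higher levels of most of the set. Of the 10 genes 8 were called higher, all but Rela and Relb, against 16.1% of all genes, with a median log2 fold change of 1.31. RLE shifted the median over genes by 0.20 here, and scaling by total counts moved the split over all genes from 1996 higher and 2126 lower to 1391 and 3237. In 9 of the 10 genes every sample lay above both DMEM samples, which held for 35.1% of all genes. Nfkb1 had the largest value at 1.96 ± 0.13 (adjusted p = 8.44e-08), a 3.88-fold difference, followed by Nfkbia at 1.86 ± 0.20 (adjusted p = 4.6e-06). Bcl3 was at 1.59 ± 0.20 (adjusted p = 1.8e-05), and at 2.20 without DMEM replicate 1. Rela was at 0.20 (interval -0.03 to 0.43, and -0.0030 with scaling by total counts) and Relb at 0.36 (interval 0.04 to 0.68, adjusted p = 0.0551). Relb was called without DMEM replicate 1 (0.65), and the call of Nfkbiz (1.24, adjusted p = 0.0101) was lost without DMEM replicate 2 (1.21, adjusted p = 0.068).

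The 2 samples of CM + Rux titled 2 h were compared with those titled 4 h. Of the 10 genes 3 were called higher in the 2 h samples, Rel, Nfkbib and Nfkbia, against 12.6% of all genes, and none lower. Rel stood at 609 and 570.4 CPM, against 269.7 to 351 in the 4 h samples, a log2 fold change of 0.93 ± 0.13 (adjusted p = 9.23e-05). Nfkbib stood at 247 and 239.9 CPM, against 123 to 152 (0.82 ± 0.11, adjusted p = 6.23e-05). Nfkbia, at 1384 and 1331 CPM, had a log2 fold change of 0.51 ± 0.18 (adjusted p = 0.0406).

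Rel and Nfkbib were the 2 genes with a clear gap, whereas the call of Nfkbia was lost in 6 of 14 alternatives, among them each of CM + Rux replicates 1 (0.483) and 3 (0.44) and each 2 h sample left out (0.474 and 0.53) and the replicate block (0.478). In 7 of the 10 genes both 2 h samples lay above all 4 h samples, against 28.5% of all genes. The precursor genes differed little, with Nfkb1 at 0.02 (interval -0.24 to 0.28) and Nfkb2 at 0.03 (interval -0.33 to 0.39), values that with scaling by total counts were -0.047 and -0.038. Of 6 dendritic cell markers the summed level was 8.83 and 12.8 CPM in the 2 h samples and 2.21 to 2.32 in the 4 h samples, nearly all of it Zbtb46, with Flt3 at 0 in the 2 h samples. The part of this in the result was not tested.

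The wider pathway was read from 51 further genes by role, of which 48 were tested. With IKK-16 on top of CM + Rux, 11 were called lower and 1 higher, against 3.66% and 4.07% of all genes. The lower genes included 1 of the 3 ligands tested, Il1a (-1.94 ± 0.40, adjusted p = 0.00595), which encodes the cytokine IL-1α, from 2322 ± 714 CPM in CM + Rux to 604 ± 368 (SD, n = 3). Of 8 receptors 2 were lower, among them the costimulatory receptor gene Cd40 (-1.73 ± 0.25, adjusted p = 0.000732), and 1 was higher, Tlr4, which encodes the receptor of bacterial lipopolysaccharide (0.68 ± 0.12, adjusted p = 0.00261). Of 21 genes listed as adaptors or upstream kinases 5 were lower. Of 10 brakes on the pathway 3 were lower, with Tnip3, whose product binds the ubiquitin editor A20, at -1.16 ± 0.12 (adjusted p = 7.04e-05). None of the 6 genes listed under IKK or NIK was called.

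In CM against DMEM, 26 of the 48 were called higher and 3 lower, against 20.9% and 24.1% of all genes. The 3 lower in CM were Irak1 (-0.66), a kinase of IL-1 receptor signaling, Otulin (-0.65), a deubiquitinase, and Tab1 (-0.56), a partner of the kinase TAK1. Il1b rose from 122 ± 85.0 CPM (SD, n = 2) to 7080.3 ± 514 (SD, n = 3). With ruxolitinib in CM, 1 gene each way was called, a share near that of all genes (1.20% and 2.13%). Tlr4 fell from 238 ± 25.9 CPM to 116 ± 10.9 (-1.04 ± 0.12, adjusted p = 0.000235), and Traf5, an adaptor of TNF receptors, was at 0.67 ± 0.11 (adjusted p = 0.00238). With IKK-16 added, Tlr4 stood at 186 ± 19.6 CPM. In DMEM none of the 48 was called with ruxolitinib, against 0.970% of all genes called lower, and the interaction was called for Tlr4 alone (-0.94 ± 0.18, adjusted p = 0.0406), against 0.412%.

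Against CM, the samples with both inhibitors had 10 of the 48 lower and none higher, against 6.13% and 6.60% of all genes, and 5 of the 10 were brakes. Against DMEM they had 22 higher and 2 lower, against 16.1% and 17.2%, and all 3 ligands tested were among the higher. Among the 2 h samples 7 of the 48 were higher than at 4 h and 6 lower, shares near those of all genes (12.6% and 10.7%). Here 5 of the 10 brakes were higher, among them Otulin (0.71) and Nfkbid (0.67), the gene of a further atypical IκB, and Map3k14, which encodes the kinase NIK of the noncanonical pathway, was at 1.64 ± 0.20 (adjusted p = 3.91e-05). Its 2 h samples were uneven, with 111 ± 47.6 CPM (SD, n = 2) against 35.8 ± 5.11 (SD, n = 3). Il1a was lower at 2 h (-1.39 ± 0.45, adjusted p = 0.027).

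Finally, the genes with a pattern most like that of 3 members were listed, from Pearson's r of log2 CPM over all 16 samples among 8239 genes. The points share the 6 groups of the study and its libraries, and r is a description with no p. Most like Nfkbia were Tnip1 (r = 0.997) and Tnfaip3 (r = 0.996), a binding partner gene of A20 and the gene of A20 itself, followed by Lcp2, Clcf1 and Cdc42ep2. For Nfkb2 they were Sept11 (r = 0.992), Stip1, Rrp7a, Orai2 and Bcl2a1d. For Rela they were Icam1 (r = 0.971), the gene of an adhesion molecule, then Relb (r = 0.97), Mtrex, Rin3 and Phldb1.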

How the data were processed

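The authors trimmed paired reads of stranded mRNA libraries with Trimmomatic 0.33, aligned them to GRCm38 with HISAT2 2.1.0 and counted fragments per gene with featureCounts 1.6.2. Counting was reverse-stranded, asked for both ends mapped and a mapping quality of at least 10, and left out fragments of several genes or alignments. The deposited values are whole-number counts of 55487 genes, not normalized, and symbols were matched for 55141. Samples were grouped by their titles.

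The 12372 genes with over 1 CPM in 2 or more samples were kept and scaled by relative log expression (RLE). One model of 6 groups over all 16 samples was fitted with the quasi-likelihood test of edgeR 4.0.16 (limma 3.58.1, R 4.3.3), and p-values were adjusted by Benjamini-Hochberg over all genes tested. A gene was called at an adjusted p under 0.05 and a log2 fold change beyond 0.5, thresholds of the study's methods. CPM values use RLE-scaled totals, and log2 CPM a prior count of 2. Depth sets no limit on the 10 genes, whose lowest count in a sample was 489. The code was tested on simulated data. Python 3.11.15, pandas 2.3.3, numpy 2.4.6 and matplotlib 3.10.9 served for the rest.

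Same-numbered samples of CM, CM + Rux and CM + Rux + IKK-16 deviated together from their group means. The correlations were 0.503 to 0.631 for IKK-16 against CM + Rux and 0.433 to 0.621 for CM + Rux against CM. For both inhibitors against CM they were 0.391 to 0.548, each comparison over 3 pairs. Samples of other numbers gave -0.419 to -0.058. Deviations cancel within a group, so these negative values follow in part from the positive ones. In comparisons with a group of 2 samples, same-numbered pairs gave 0.121 (both inhibitors against DMEM) to 0.351 (2 h against 4 h samples). From the same-numbered values, the numbers in the titles were taken as pairing the samples for the replicate block and for values within a number. The main model held no block, so its calls, SEs, intervals and adjusted p-values are unpaired. Replicates differed by more than counting noise, and chi-square divided by its degrees of freedom was 15.3 to 59.

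The 10 members, the 51 pathway genes, the marker lists and the tests were chosen with earlier results of these data known. Named pathway genes are the 3 called genes that rose the most and the 3 that fell the most in a comparison, and the 5 most correlated genes are named for Nfkbia, Nfkb2 and Rela. Marker lists of T and NK cells, B cells and fibroblasts reached at most 13.1, 22.0 and 20.9 CPM per sample in sum. Alternatives were TMM, no filter, filterByExpr, the replicate block, a model of only the groups compared, DESeq2 1.42.0, other thresholds, each sample left out in turn and, chosen after seeing the data, scaling by total counts.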

Additional observations from a re-analysis of the deposited data

Results flagged for a closer look

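In 3 genes the ruxolitinib effect in CM differed from that in DMEM by the interaction term of the model with the replicate number as a block. The term was 0.71 for Nfkb2, 0.70 for Nfkbib and 0.60 for Rel on the log2 scale. In the main model, which has no block, none of them passed, and Nfkbib was at an adjusted p of 0.0502. Some other settings without the block also called them, among them DESeq2 for Nfkbib and Rel and no filter on low counts for all 3. The DMEM group holds 2 samples, and over all samples left out in turn the term without the block was 0.24 to 0.99 for Nfkb2, 0.52 to 0.90 for Nfkbib and 0.52 to 0.82 for Rel.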

How the results depend on the processing

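Of 121 counts of called members under an alternative, 108 kept within 1.5 times of the count given, 13 rose beyond that and none fell beyond it. Smaller falls occurred, as from 5 to 4 with IKK-16 and from 3 to 2 for both inhibitors against CM, each with scaling by total counts. A count of 0, as for ruxolitinib in either medium and the interaction, could not fall. Of 1210 values of single members, 1129 kept their direction and their side of the threshold, 21 lost a call, 40 gained one and 20 changed sign, none of them of a called member. For the interaction, which called 0 of the 10 genes, 1 was called at an adjusted p under 0.1, 1 with scaling by total counts, 2 with DESeq2, 3 with no filter, 3 with the replicate block and 0 to 3 with a sample left out. For ruxolitinib in CM, 2 passed with no fold threshold, 1 with scaling by total counts and 0 to 1 with a sample left out. For ruxolitinib in DMEM, 1 passed with no filter and 0 to 2 with a sample left out. For the 2 h samples, 5 passed with no fold threshold. Where a sample was left out of DMEM or the 2 h group, the lone sample is assumed to vary like the other groups.

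Signs changed with scaling by total counts for Rela in CM against DMEM (-0.0098), in both inhibitors against DMEM (-0.0030) and against CM (0.0068), for Rel in the last (0.072) and for Nfkb1 (-0.047) and Nfkb2 (-0.038) at 2 h. With samples left out, values ran from -0.18 to 0.85 for the interaction of Bcl3, from -0.13 to 0.062 for Rel with both inhibitors against CM (0.034 without CM + Rux + IKK-16 replicate 3), and at 2 h from -0.082 to 0.11 for Nfkb1 (-0.064 without CM + Rux replicate 3) and from -0.0018 to 0.087 for Nfkb2. With ruxolitinib in CM they ran from -0.0073 to 0.21 for Nfkbia and from -0.24 to 0.089 for Nfkbie (0.082 and 0.051 without CM replicate 2 and CM + Rux replicate 1), and in DMEM from -0.37 to 0.0089 for Rela, from -0.48 to 0.036 for Relb, from -0.69 to 0.061 for Nfkb2 and from -0.56 to 0.017 for Nfkbia. The cause was not tested.

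The replicate block also ended the calls of Relb in CM against DMEM (0.48) and of Nfkbia at 2 h (0.478), comparisons with 2 pairs each, and beside the changes given with the results it changed no other call of a member. Over all genes, the count called rose from 957 to 1778 with IKK-16, from 1575 to 2857 for both inhibitors against CM, from 4122 to 6209 against DMEM and from 2883 to 4726 at 2 h when the fold threshold was dropped. It rose from 412 to 745 with the block and 685 with no filter for ruxolitinib in CM, where leaving a sample out gave as few as 243. For the interaction it was 51, against 444 with the block, 349 with no filter, 237 with DESeq2, 142 at an adjusted p under 0.1 and 90 with scaling by total counts, and 17 to 114 with a sample left out.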
